A study of Drosophila melanogaster with 36 samples.

Results

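The comparison of old with young heads at zeitgeber time 20 (ZT20) rested on 6 of the 36 libraries of the study, chosen by their labels of age and collection time. Of these, 3 came from whole heads of female w1118 flies aged 5 days (young) and 3 from flies of the same sex and genotype aged 55 days (old). Zeitgeber time is counted in hours from the daily light signal, and the other 30 libraries cover both ages at ZT0, ZT4, ZT8, ZT12 and ZT16. Each sample pooled 400 heads, and whole heads mix brain, eyes, fat body, muscle and cuticle. Fewer cells of a type and less RNA per cell therefore cannot be told apart. Nothing states that replicates came from separate cohorts of flies, so a p-value here speaks only to the spread among these libraries.

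A miRNA is cut from a hairpin whose 5p and 3p arms can each yield a mature strand. One strand is usually kept in an Argonaute protein, where its seed pairs with target messengers and lowers their output, while the other strand decays. Mirtrons are hairpins made by splicing of short introns rather than by Drosha. piRNAs come from genomic clusters rich in transposon remnants and silence transposons, mainly in the germ line.

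Deposited miRNA counts came to 26.5, 26.0 and 26.0 M in the young and 21.6, 17.6 and 21.2 M in the old libraries, and piRNA cluster counts lay between 225928 and 319618. After removal of low counts, 363 of 673 listed miRNA features and 85 of 112 piRNA features were tested. Levels are CPM, counts scaled to the total of the same table with trimmed-mean scaling, and a call is an adjusted p under 0.05. Replicates differed by more than counting error in every pair, with chi-square values of 269 or more for each degree of freedom. So none was a mere second sequencing of the same library, but this does not show that they came from separate RNA or heads. Tissue markers were detected: the photoreceptor miRNA miR-210-3p stood between 28107 and 36857 CPM and the neuronal miR-124-3p between 277.3 and 460 CPM.

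Summed marker levels at the 2 ages were as follows. The 12 neuron marker arms summed to 34727 to 37566 CPM in young and 24674 to 28693 CPM in old libraries. Of these arms 0 were called higher and 3 lower, against 6.42% and 15.9% of all named arms. With plain library totals, 0 of the 3 falls were called. Most of the neuron marker sum was miR-133-3p (31010 to 34011 and 21335 to 25507 CPM, log2 -0.46, not called), which is on the muscle list too. The pan-neuronal miR-124-3p had a log2 change of 0.34 without a call. The 4 eye arms summed to 37043 to 38068 CPM in young and 28960 to 33172 CPM in old libraries, mostly miR-210-3p. The 6 fat body arms gave 202085 to 211374 and 223771 to 253165 CPM, mostly miR-8-3p, and the muscle marker miR-1-3p gave 431 to 512 and 569 to 596 CPM. None of these eye, fat body and muscle markers was called. The wider muscle list also holds the arms of miR-133, of which miR-133-5p was called lower (log2 -0.66). The 4 tested ovary arms summed to 18.4 to 20.0 CPM in young heads and to 55.5, 10.7 and 13.2 CPM in old replicates 1, 2 and 3, so old replicate 1 stood apart, with miR-318-3p at 49.7 CPM, while miR-318-5p and miR-989-5p were at 0 in all 6. Testis arms summed to 11.4 to 13.1 and 11.2 to 15.3 CPM and early embryo arms to 45.3 to 86.4 and 51.9 to 68.0 CPM. The part of tissue makeup in the results that follow was not tested.

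Relative to the typical miRNA, old heads at ZT20 held more miR-308-3p, miR-13b-2-5p and miR-9a-5p than young heads. On the same scale they held less miR-2c-5p, miR-193-5p, miR-990-5p, miR-375-3p and miR-993-3p. By edgeR's quasi-likelihood test, 91 of 363 features differed (25.1% of those tested), 39 of them higher (10.7%) and 52 lower (14.3%) in old heads. Among miRBase-named arms the counts were 19 higher (6.42%) and 47 lower (15.9%) of 296, and of the 47 falls 13 were also called with plain library totals, as were 13 of the 19 rises. A fit of the named arms without the other features gave 20 higher and 29 lower. Of the 67 features with an rr identifier, a label that the files do not explain, 20 were higher and 5 lower. Near-identical copies weigh on these counts: 10 of the falls are copies of miR-10404-5p, which lies in the ribosomal DNA (log2 change -0.31), and its call ended without any 1 of the 6 libraries (adjusted p up to 0.122). With each set of copies counted once, 29 features were higher and 43 lower of 335, and among named arms 18 and 38 of 279.

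How many features were higher and how many lower varied with the scaling. Plain library totals gave 35 higher and 17 lower, and limma on log2(RPM + 1) gave 33 and 16, with the median change of all features at 0.16 and 0.11 against 0.02. Division by the larger total behind the piRNA RPM gave 17 higher and 164 lower with the median at -0.62. That division lowers every change, and under it 3 of the 19 named rises were again called and 10 stayed above 0. Directions below are relative to the typical miRNA. Leaving out 1 of the 6 libraries gave 26 to 36 rises and 29 to 37 falls, the former lowest without young replicate 1 (26 and 35) and the latter without old replicate 2 (30 and 29). Without old replicate 1, the library with the ovary excess, the counts were 36 and 37.

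**Figure D1:**
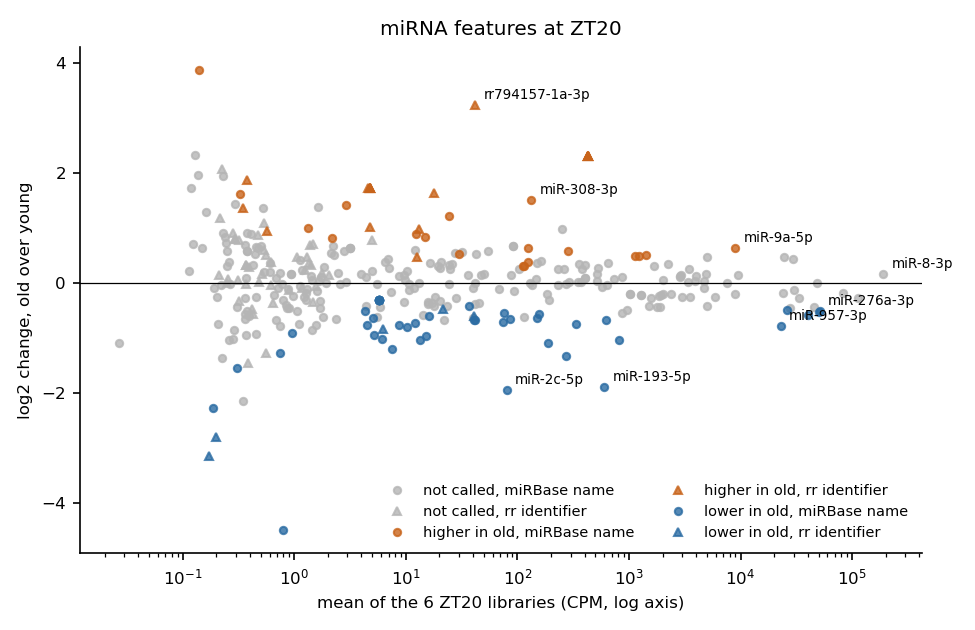
Each point is a miRNA feature, placed by its mean over the 6 ZT20 libraries (CPM, log axis) and its log2 change between old and young heads. Circles carry a miRBase name and triangles an rr identifier, coloured where the adjusted p was under 0.05, with 39 features higher and 52 lower in old heads.

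Rises over 2-fold numbered 23 and falls 14, or 14 of each with copies counted once. The levels of the 2 ages did not overlap for 157 features, 43.3% of those tested, and for 88 of the 91 called. By level, the 35 named arms between 1000 and 10000 CPM held 4 rises and 0 falls, and the 16 above 10000 CPM held 0 rises and 5 falls. These 5 were miR-276a-3p, miR-276b-3p, miR-277-3p, miR-957-3p and miR-999-3p, the last of which lost its call without young replicate 1 or 2 or old replicate 2 or 3 (adjusted p up to 0.173). By arm, 12 of 136 5p arms were higher and 15 lower, and 6 of 142 3p arms were higher and 23 lower, each copy set counted once. By chromosome arm, 5 rises and 1 fall were called among 54 arms on 2R, against 3 and 15 among 65 on 3R. These tallies describe the calls and were not tested against each other.

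Arms were named by size of change among those whose ages did not overlap, so the separation of the named arms is set by that choice. The largest rise of a named arm of at least 10 CPM was that of miR-308-3p, which belongs to the K box family, known for restraining proapoptotic genes. It measured 53.5, 67.7 and 85.7 CPM in young and 143, 203 and 241 CPM in old replicates 1, 2 and 3. The log2 change was 1.51 (SE 0.25, adjusted p = 2.59e-05, edgeR). The hairpin lies in an intron of the ribosomal protein gene RpS23, from 14215802 to 14215864 on the minus strand of 2R. Its partner miR-308-5p measured 87.7, 92.1 and 113 CPM in young and 131, 149 and 176 CPM in old heads (log2 0.64, adjusted p = 0.0458).

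A second K box hairpin, mir-13b-2 in an intron of the chaperonin subunit gene CCT2, lies from 9091230 to 9091299 on the plus strand of X. Its 5p arm miR-13b-2-5p measured 15.3, 14.9 and 14.1 CPM in young and 28.5, 40.6 and 33.5 CPM in old heads (log2 1.21, SE 0.16, adjusted p = 5.67e-07, edgeR). From an intron of the EGF receptor ligand gene spi (19569490 to 19569561, minus strand of 2L), miR-2a-2-5p stood at 224 to 238 CPM in young and 324 to 353 CPM in old heads (log2 0.57, adjusted p = 0.00282, but -0.07 over the RPM total).

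The most abundant of the rises was miR-9a-5p, which limits the number of sensory organ precursors by repressing senseless. It measured 7129, 7335 and 6763 CPM in young and 11288, 11266 and 10276 CPM in old heads. The log2 change was 0.63 (SE 0.13, adjusted p = 6.45e-04, edgeR), or -0.02 over the RPM total. Its hairpin lies in an exon of lncRNA:CR45916, from 19565131 to 19565208 on the plus strand of 3L.

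Both arms of mir-306, within grp, the gene of the checkpoint kinase Chk1 (16698404 to 16698488, plus strand of 2L), were called higher. The abundant arm miR-306-5p stood at 914 to 970 CPM in young and 1261 to 1345 CPM in old heads (log2 0.48, adjusted p = 0.0439), and miR-306-3p at 9.65 to 12.4 and 14.1 to 25.1 CPM (0.83, adjusted p = 0.0139). In the same intron, miR-9b-5p narrowly missed the threshold at 550, 584 and 560 CPM in young and 705, 763 and 721 CPM in old heads (0.37, adjusted p = 0.0539), and miR-9c-5p had a log2 change of -0.21 (adjusted p = 0.311). So the neighbours in this intron were not all called.

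The other rises among the 12 largest were smaller or of low abundance. They were miR-5-5p of the early embryo miR-309 cluster (7.90 to 10.3 and 13.9 to 19.4 CPM, log2 0.88), miR-100-3p, the lesser arm of a let-7 complex hairpin (22.9 to 25.6 and 34.1 to 35.8 CPM, 0.52), and miR-986-5p, from an intron of the cytochrome P450 gene Cyp4e2 (1025 to 1250 and 1573 to 1776 CPM, 0.52). The last 2 were miR-12-5p, from an intron of the golgin gene Gmap (997 to 1051 and 1361 to 1523 CPM, 0.50), and miR-996-5p, the lesser arm of a miRNA that acts with miR-279 in sensory neuron development (102 to 118 and 127 to 159 CPM, 0.38). With plain library totals the calls of miR-12-5p (adjusted p = 0.0646, edgeR), miR-306-5p (0.0646), miR-308-5p (0.109) and miR-996-5p (0.134) ended. Over the RPM total those of miR-306-3p (0.17, adjusted p = 0.664), miR-308-5p (0.00, 0.997) and miR-5-5p (0.25, 0.421) also ended, and the changes of miR-100-3p, miR-986-5p, miR-12-5p, miR-996-5p and miR-306-5p were below 0, at -0.13, -0.13, -0.14, -0.27 and -0.16.

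Several of these calls hung on single libraries. That of miR-306-5p ended without any 1 of the 6 (adjusted p from 0.0797 to 0.142), and that of miR-996-5p without any but old replicate 3 (0.0897 to 0.195). For miR-308-5p the call ended without old replicate 2 or 3 or young replicate 1 or 2 (0.0934, 0.180, 0.165 and 0.137), and for miR-306-3p without old replicate 2 or young replicate 1 or 2 (0.128, 0.0592 and 0.0537). It ended for miR-5-5p without old replicate 1 (0.0519) and for miR-986-5p without young replicate 3 (0.0523).

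**Figure D2:**
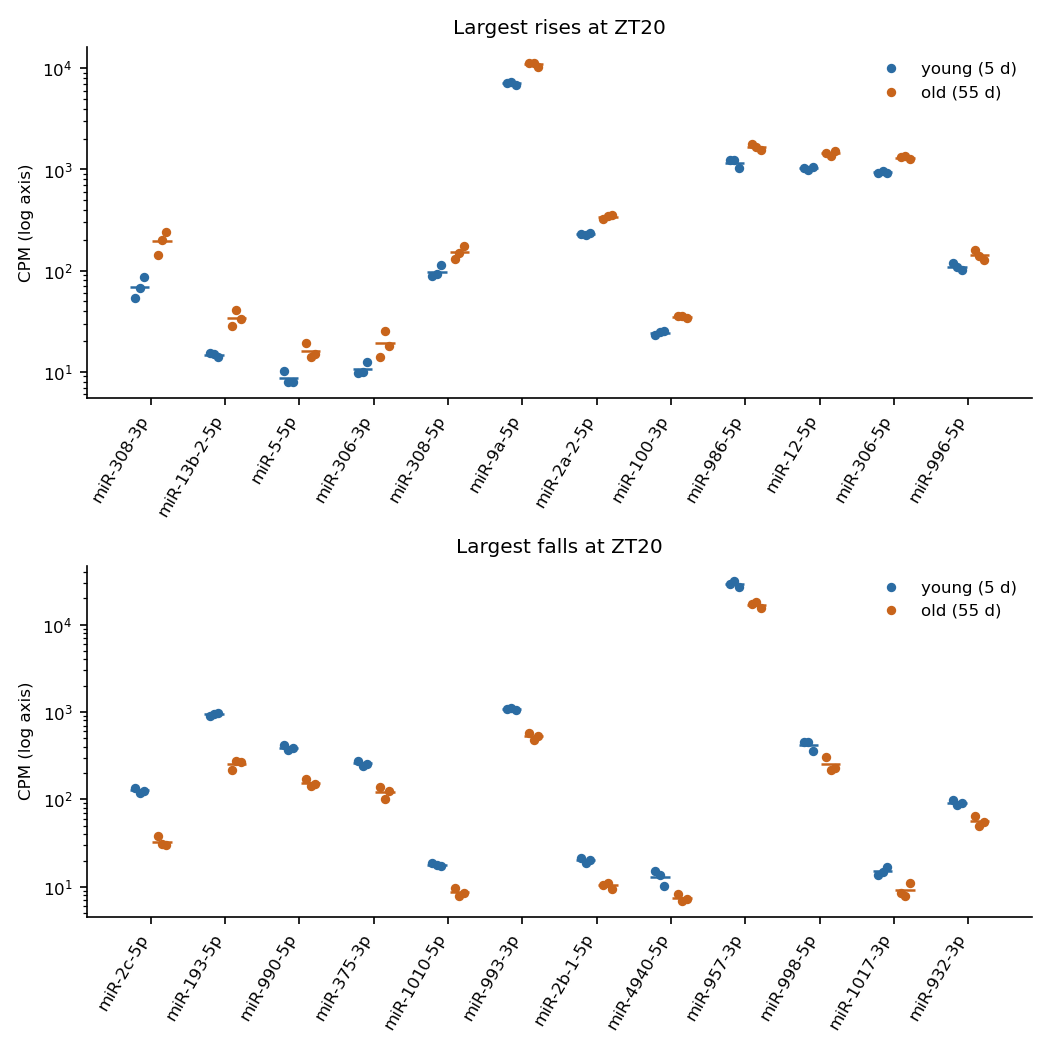
Points are single ZT20 libraries (CPM, log axis) and bars their means, for the 12 largest rises and 12 largest falls among called miRBase-named arms of at least 10 CPM. Young libraries are blue and old ones orange, and the 24 were named among arms without overlap.

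The deepest fall by this rule was that of miR-2c-5p, the lesser arm of a K box hairpin in an exon of lncRNA:CR45911 (from 15417744 to 15417845 on the minus strand of 3R). It measured 136, 120 and 125 CPM in young and 38.0, 30.8 and 30.0 CPM in old heads. The young mean was 3.86 times the old one, with a log2 change of -1.95 (SE 0.17, adjusted p = 1.81e-09, edgeR). The other arm, miR-2c-3p, which carries the K box seed, stood at 195, 212 and 235 CPM in young and 151, 177 and 191 CPM in old heads and was not called (-0.31, adjusted p = 0.214). In the same transcript miR-13a-5p was called higher, from 0.727, 1.19 and 0.729 to 1.81, 1.42 and 2.08 CPM (1.003, adjusted p = 0.0204), whereas miR-13a-3p (0.02) and miR-13b-1-5p (0.25) were not called. The call of miR-13a-5p ended without young replicate 1 or 3 or old replicate 3 (adjusted p up to 0.120).

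Next came miR-193-5p, whose hairpin lies outside genes from 21574014 to 21574121 on the plus strand of 3L. It measured 904, 952 and 968 CPM in young and 218, 276.98 and 268 CPM in old heads. The log2 change was -1.89 (SE 0.18, adjusted p = 1.89e-09, edgeR). Its lesser arm miR-193-3p stood at 22.1 to 33.9 and 12.5 to 21.1 CPM (-0.67, adjusted p = 0.166).

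The values of miR-990-5p, from a CG8910 intron (16895223 to 16895308, minus strand of 2R), were 417, 365 and 390 CPM in young and 171, 144 and 152 CPM in old heads (log2 -1.33, adjusted p = 1.86e-05). For miR-375-3p, known in mammals from pancreatic islet cells, they were 278, 241 and 257 CPM in young and 137, 102 and 126 CPM in old heads (-1.09, adjusted p = 1.11e-05). For miR-993-3p, a relative of the Hox cluster miRNA miR-10, they were 1093, 1114 and 1045 CPM in young and 582, 483 and 529 CPM in old heads (-1.03, adjusted p = 5.18e-07). The young means were 2.51, 2.13 and 2.04 times the old ones.

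Among the falls named by size of log2 change, that of miR-957-3p took most counts. Its hairpin lies outside genes at 22518196 to 22518291 on the minus strand of 3L. The arm measured 29258, 31069 and 26682 CPM in young and 17048, 18060 and 15507 CPM in old heads. The log2 change was -0.78 (SE 0.12, adjusted p = 9.58e-06, edgeR). Another 4 of the falls came from hairpins in introns. They were miR-1010-5p in SKIP, which encodes a partner of the Shal potassium channel (17.4 to 18.6 and 7.89 to 9.77 CPM, log2 -1.04), and miR-1017-3p in nAChRalpha2, an acetylcholine receptor gene (13.6 to 17.0 and 7.89 to 10.95 CPM, -0.73). The others were miR-932-3p in the neuroligin gene Nlg2 (86.4 to 98.7 and 49.8 to 64.2 CPM, -0.71) and miR-998-5p in E2f1, which encodes a cell cycle transcription factor (363 to 454 and 219 to 310 CPM, -0.74).

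Finally, a pair of falls came from 3' untranslated regions. Beside the kinase gene Btk, which holds miR-2b-1-5p (18.9 to 21.2 and 9.52 to 11.2 CPM, log2 -0.95), this was nwk, a regulator of synapse growth, which holds miR-4940-5p (10.4 to 15.1 and 6.94 to 8.31 CPM, -0.80). The call of miR-1017-3p ended without old replicate 1 or 2 or young replicate 2 or 3 (adjusted p = 0.0847, 0.126, 0.0537 and 0.110 in edgeR), and that of miR-998-5p without old replicate 2 (0.0526). With plain library totals the calls of miR-1017-3p (-0.59, adjusted p = 0.145, edgeR), miR-998-5p (-0.60, 0.122) and miR-932-3p (-0.57, 0.0690) ended.

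Below 10 CPM, and so outside the naming rule, miR-955-5p was singled out after its values were seen. Its counts were 36, 42 and 37 in young and 2, 1 and 1 in old heads (adjusted p = 9.6e-06, edgeR), so the arm was near its limit of detection in every old library. The hairpin lies outside genes from 3299055 to 3299151 on 3L. In the other direction, miR-iab-8-5p of the Bithorax complex, needed for fertility, had counts of 0, 1 and 0 in young and 9, 5 and 3 in old heads (adjusted p = 0.00917), too few for a fold.

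Among features of at least 10 CPM, those with rr identifiers held the largest rises. The levels of rr794157-1a-3p-miR were 6.542, 8.84 and 8.59 CPM in young and 63.8, 95.1 and 66.9 CPM in old heads (log2 3.23, SE 0.25, adjusted p = 9.18e-11, edgeR). A set of 6 near-identical features, among them rr817690-5b-5p-miR, each stood at 174, 141 and 116 CPM in young and 788, 870 and 467 CPM in old heads (2.30, adjusted p = 1.76e-05), and which of their loci gave the reads is uncertain. The 3p partners of the same 6 loci were called higher too, at 1.71 to 2.81 and 6.21 to 8.27 CPM, so these loci make up 12 of the 20 rr rises. For rr767199-3a-5p-miR the values were 7.84 to 9.51 and 23.7 to 32.4 CPM (1.64). The falls by the same rule were rr432755-1a-3p-miR (-0.60), whose call ended without old replicate 3 (adjusted p = 0.117) or young replicate 1 (0.0897), and rr76561-2a-3p-miR (-0.47), whose call ended with plain library totals (-0.33, adjusted p = 0.287).

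Of the 5 most abundant miRNAs, miR-276a-3p and miR-276b-3p, which act on the clock gene timeless and on dopamine signalling, were lower in old heads. The former stood at 61528, 60235 and 59312 CPM in young and 41218, 41049 and 45265 CPM in old heads, a log2 change of -0.51 (SE 0.10, adjusted p = 2.11e-04, edgeR). With plain library totals it was -0.37 without a call (adjusted p = 0.215). The latter changed by -0.52, or by -0.38 without a call (0.201), and since their mature strands are nearly alike, reads may have been split between them. No call was made for miR-8-3p, a growth and fat body regulator (175611 to 183170 and 187968 to 218057 CPM, 0.17, adjusted p = 0.521), for miR-184-3p (-0.27, adjusted p = 0.768) or for the growth regulator bantam-3p (-0.17, adjusted p = 0.558). The spread of miR-184-3p was wide in both ages, at 103819 to 155893 and 76973 to 132264 CPM.

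Of the 6 arms of the mir-317, mir-277 and mir-34 hairpins, an ageing-related cluster on 3R, 3 were lower and 0 higher. Over all named arms, 15.9% were lower and 6.42% higher. The median log2 change of the 6 was -0.46 against -0.02 over all named arms. The called arms were miR-34-3p (669, 738 and 911 CPM against 514, 488 and 453 CPM, -0.67, adjusted p = 0.0343), miR-277-5p (-0.63) and miR-277-3p, a brake on the breakdown of branched-chain amino acids (29514 to 32509 and 19821 to 24726 CPM, -0.48, adjusted p = 0.00771). The strand of known function in ageing, miR-34-5p, measured 55504, 51834 and 49161 CPM in young and 41593, 37045 and 36998 CPM in old heads without a call (-0.44, SE 0.19, adjusted p = 0.104), and miR-317-3p was at 0.02. The call of miR-277-3p ended without old replicate 2 (-0.42, adjusted p = 0.0526), and that of miR-34-3p without any library but young replicate 1 (adjusted p from 0.0519 to 0.137). With plain library totals none of the 3 was called, at -0.54 for miR-34-3p (adjusted p = 0.0789), -0.49 for miR-277-5p (0.0643) and -0.34 for miR-277-3p (0.375).

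In the let-7 complex, which times development and is made in adult brain too, miR-100-3p was the sole call among 6 arms (16.7%, against 6.42% of all named arms higher). The guide strands let-7-5p (23644 to 28221 and 19702 to 27761 CPM, -0.18, adjusted p = 0.576), miR-125-5p (2018 to 2492 and 1427 to 1744 CPM, -0.44, adjusted p = 0.163) and miR-100-5p (230 to 251 and 269 to 306 CPM, 0.26, adjusted p = 0.466) were not called. A call for let-7-3p began without old replicate 1 (0.74, adjusted p = 0.0468, against 0.60 and 0.0735). Of the 6 arms encoded in Gmap introns by mir-283, mir-304 and mir-12, 2 were higher (33.3%, against 6.42% of all named arms). They were miR-12-5p and miR-12-3p (1.29 to 1.83 and 2.75 to 2.89 CPM, 0.82), and the median of the 6 was 0.47. All 6 changes were above 0, but over the RPM total only that of miR-12-3p was. Without young replicate 1 the call of miR-12-3p ended (adjusted p = 0.0602, edgeR).

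Over all named arms, 6.42% were higher and 15.9% lower, or 18 and 38 of 279 with copies counted once. Among 18 distinct arms of K box hairpins, 5 were higher and 2 lower, as described above, with a median of 0.12. Most of these 7 are 5p arms, which do not carry the seed of the family. The most abundant 3p arms, which do, were not called: miR-11-3p (27395 to 33396 CPM over the 6 libraries, -0.13), miR-2a-3p (-0.22) and miR-2b-3p (-0.20). The miR-9/79 family had 1 rise among 8 arms (12.5%, against 6.42% of all named arms). Of 4 arms from mir-959 to mir-964, a cluster tied to feeding time, 2 were lower (50%, against 15.9% of all named arms). Both were under 1 CPM, namely miR-959-3p (0.192 to 0.525 and 0 to 0.0903 CPM) and miR-964-5p (0.383 to 0.556 and 0.105 to 0.226 CPM). The first call ended without young replicate 1 or any old replicate (adjusted p from 0.0519 to 0.165), the second without old replicate 2 or 3 or young replicate 2 (0.0968, 0.0940 and 0.0799), as it did with plain library totals (0.0646). Of the 7 miR-310 cluster arms, 0 were called, with a median of 0.64 and miR-312-3p at 19.1 to 28.3 and 28.0 to 41.9 CPM (0.55, adjusted p = 0.514).

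Mirtrons had 7 falls and 0 rises among 22 arms (31.8% lower), with a median of -0.29. Of all named arms 15.9% were lower, or 38 of 279 with copies counted once. With plain library totals 2 of the 7 mirtron falls were called, miR-1003-3p and miR-1010-5p. In the main fit the called arms were miR-1003-3p (-0.94), miR-1004-3p (-1.01), miR-1004-5p (-0.54), miR-1010-5p, miR-1011-3p (-0.51), miR-1017-3p and miR-1012-3p (-0.65). The call of miR-1011-3p ended without young replicate 1 or 3 or old replicate 2 or 3 (adjusted p up to 0.208). The best covered of them, miR-1012-3p in the lysosomal sorting receptor gene Lerp, measured 95.8, 106 and 114 CPM in young and 66.9, 69.2 and 65.0 CPM in old heads (adjusted p = 0.00410, edgeR, but -0.52 and 0.0807 with plain library totals). Its partner miR-1012-5p, at 197 to 258 and 195 to 271 CPM, was not called (-0.04), nor was the abundant miR-1010-3p (527 to 752 CPM over the 6 libraries, -0.03).

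For tissue and function lists, 0 of 20 neuron arms were higher and 3 lower (15%, near the 15.9% of all named arms, so not a result about the list), with a median of -0.21. None of the 3 falls was called with plain library totals. The falls were miR-932-3p, miR-219-3p (4.76 to 6.60 and 2.30 to 4.10 CPM, -0.77) and miR-133-5p (50.0, 49.8 and 53.6 CPM against 32.7, 31.9 and 32.4 CPM, -0.66, adjusted p = 0.00281, but -0.52 and 0.205 with plain library totals), and the abundant partner miR-133-3p was not called (31010 to 34011 and 21335 to 25507 CPM, -0.46, adjusted p = 0.104). Neither miR-124-3p, the pan-neuronal miRNA (0.34, adjusted p = 0.309), nor miR-315-5p (-0.25), miR-927-5p (0.13) or miR-987-5p (0.14) was called. Of 15 eye and sense organ arms, 2 were higher, miR-9a-5p and miR-996-5p (13.3%), and 1 lower, miR-285-3p (6.67%), against 6.42% and 15.9% of all named arms. For miR-285-3p the levels were 161 to 219 and 105 to 144 CPM (-0.56, but -0.43 and adjusted p = 0.278 with plain library totals). No call was made for miR-210-3p (-0.28, adjusted p = 0.132) or for miR-263a-5p, which protects sense organ cells from death (21657 to 29306 and 27236 to 41737 CPM, 0.43, adjusted p = 0.558). The call of miR-219-3p and that of miR-285-3p each ended without young replicate 3 or old replicate 1 (adjusted p up to 0.0873 and 0.110).

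Among 22 arms linked to ageing and neuroprotection 0 were higher and 4 lower (median -0.01), and among 24 linked to the clock and rest-activity 1 was higher and 4 lower (-0.19), all named above. These shares of falls are near the 15.9% of all named arms, and with plain library totals 0 of the first 4 falls and 2 of the second 4 were called. Fat body and metabolism had 2 falls among 14, both arms of miR-277 (14.3%), with miR-33-5p of the SREBP intron at 19169, 21272 and 20510 CPM in young and 29124, 28105 and 27654 CPM in old heads but short of the threshold (0.48, adjusted p = 0.0731). Immune regulation had 2 falls among 12, miR-34-3p and miR-964-5p (16.7%, near the share of all named arms). Among 3 muscle arms, miR-133-5p was lower as given above, while miR-1-3p (0.27, adjusted p = 0.717) and miR-133-3p were not called. Of the lists for tissues outside the head, 0 of 4 ovary arms, 1 of 6 testis arms (miR-984-3p, under 1 CPM) and 1 of 6 early embryo arms (miR-5-5p) were called. Both calls were rises, against 6.42% of all named arms higher. That of miR-984-3p ended without young replicate 2 or 3 or old replicate 2 or 3 (adjusted p up to 0.138). For miR-318-3p the old libraries spread from 9.57 to 49.7 CPM around the young 17.1 to 18.9 CPM.

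The arms of a hairpin were then compared within each library, which does not depend on scaling. Of 44 hairpins with both arms at 10 CPM or more, 7 changed their 5p to 3p ratio (15.9%, limma), 3 towards the 5p arm (6.82%) and 4 towards the 3p arm (9.09%). The 5p share of miR-2c was 41.1%, 36.2% and 34.8% in young and 20.1%, 14.8% and 13.6% in old heads, a log2 change of the ratio of -1.65 (SE 0.25, adjusted p = 1.40e-05). That of miR-193 went from 97.4%, 97.7% and 96.6% to 94.6%, 94.2% and 92.7% (-1.22, adjusted p = 0.00141). That of miR-308 went from 62.1%, 57.6% and 56.9% to 47.9%, 42.3% and 42.2% (-0.86, adjusted p = 0.00202). In all 3 the ages were apart in every library, and the more abundant arm of miR-308 was the 5p arm in young and the 3p arm in old heads.

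In the other direction, the 5p share of miR-993 was 6.94%, 7.14% and 7.41% in young and 13.3%, 15.7% and 15.9% in old heads (1.19, SE 0.22, adjusted p = 1.67e-04, limma). There the 3p arm fell while miR-993-5p was not called (81.5 to 85.6 and 89.4 to 100 CPM, 0.15). The 5p shares of miR-276a and miR-276b, whose 5p arms are near-identical copies and so not separate evidence, were 0.0962% to 0.151% and 0.201% to 0.301% for the former (1.17, adjusted p = 0.00141). For miR-124 the ratio was called though neither arm was, with 5p shares of 40.3%, 40.1% and 35.2% in young and 33.0%, 30.3% and 27.3% in old heads (-0.54, adjusted p = 0.0306). Without young replicate 1 or 2 or old replicate 2 or 3 this call ended (adjusted p = 0.124, 0.118, 0.0625 and 0.166). The shares of the ages did not overlap in 18 of the 44 hairpins (40.9%).

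**Figure D3:**
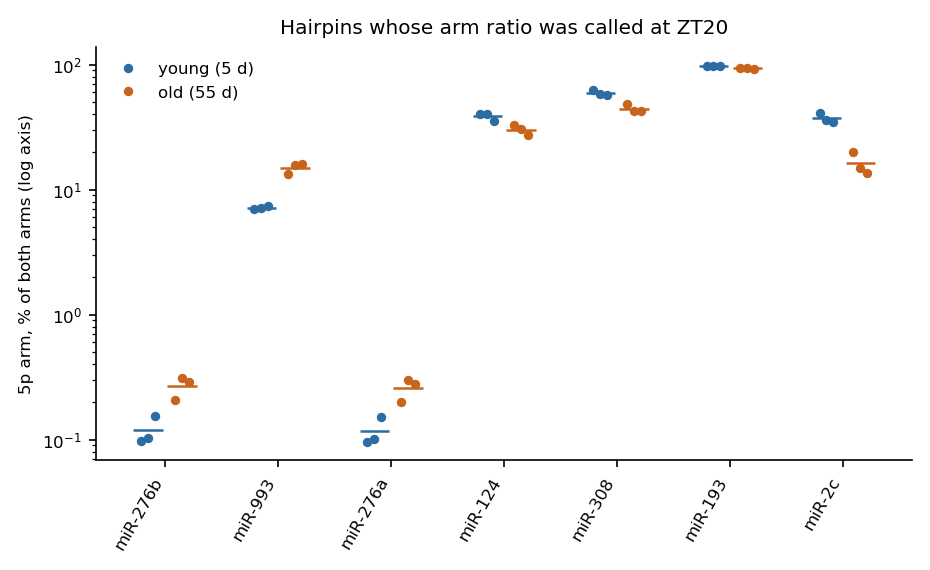
Points give the 5p arm as a percent of both arms (log axis) in each ZT20 library and bars the mean, for the 7 hairpins whose arm ratio was called. Old libraries (orange) lie above the young (blue) for miR-276a, miR-276b and miR-993 and below them for miR-124, miR-308, miR-193 and miR-2c.

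Among piRNA clusters, which the files number without a position and list in a first and a second column set of unstated meaning, 9 of 85 features differed in edgeR (10.6%), 4 higher (4.71%) and 5 lower (5.88%) in old heads. Their unit is CPM, scaled to the piRNA cluster counts of the library with trimmed-mean scaling, so a value is not a share of those counts. The table was dominated by clusters 51 and 90 in the first set. Cluster 51 stood there at 620992 to 646949 in young and 511715 to 589922 in old heads. Neither was called there (log2 -0.18 and -0.22, adjusted p = 0.980). With plain library totals their changes were -0.0004 and -0.04, also without a call, so the lower level of cluster 51 in old heads came with the scaling.

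Cluster 10 was higher in old heads in both sets. In the first it measured 30.4, 20.4 and 32.7 in young and 232, 251 and 283 in old heads (log2 3.26, SE 0.48, adjusted p = 1.32e-05, edgeR). In the second it measured 43.6, 84.1 and 40.3 in young and 317.5, 330 and 393 in old heads (2.66, adjusted p = 1.61e-04). Young counts were 4 to 16.5 per library. In the second set, cluster 90 stood at 39.8, 37.5 and 49.7 in young and 112, 111 and 134 in old heads (1.47, adjusted p = 0.00205), and cluster 51 at 102, 103 and 120 and at 210, 219 and 264 (1.08, adjusted p = 0.0114).

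The deepest fall was that of cluster 41 in the second set, at 2274, 2149 and 2035 in young and 470, 449 and 496 in old heads (log2 -2.19, SE 0.37, adjusted p = 4.13e-05, edgeR). Its first set stood at 172 to 205 and 118 to 133 and was not called (-0.60, adjusted p = 0.980). Cluster 44 was lower in the first set, at 346, 438 and 419 against 132, 89.2 and 114 (-1.83), but not called in the second, at 381 to 481 and 462 to 519 (0.18). The remaining falls were those of cluster 26 in the second set (547 to 968 and 171 to 224, -1.90), cluster 48 in the second set (55.4 to 66.2 and 15.6 to 20.1, -1.80) and cluster 70 in the first set (86.8 to 115 and 27.0 to 45.9, -1.44).

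Ages did not overlap in 33 of the 85 piRNA features (38.8%), which include the 9 called. With plain library totals the calls of cluster 90 (adjusted p = 0.0882, edgeR), 51 (0.218) and 48 (0.0882) in the second set and of cluster 44 (0.0882) and 70 (0.300) in the first ended, while clusters 21 (-0.51, 0.0341) and 22 (0.79, 0.0210) of the first set were called. Over the RPM total those of cluster 51 (0.359) and 90 (0.176) in the second set and 70 (0.214) in the first ended, and cluster 21 of the first set was called (-0.69, 0.00708). The call of cluster 51 in the second set ended without young replicate 1 or 2 or old replicate 3 (adjusted p = 0.0812, 0.0537 and 0.0644, edgeR). The estimate of spread is shared with libraries of other times, of which 3 (old ZT0 replicate 1, and replicate 3 of young heads at ZT4 and at ZT8) held miR-318-3p at 460 to 784 CPM against at most 49.7 in the other 33. Without these 3, 7 features were higher and 9 lower. The 7 added were cluster 14 (log2 -0.90), 47 (-1.34), 66 (0.74), 83 and 86 (-0.57) in the second set and cluster 21 (-0.77) and 22 (0.53) in the first.

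**Figure D4:**
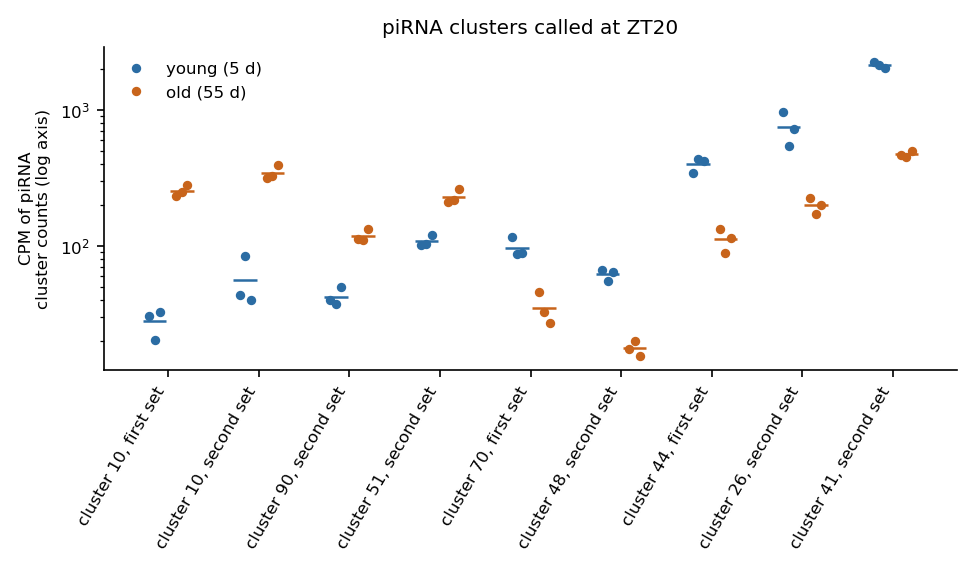
Points are single ZT20 libraries (CPM of piRNA cluster counts, log axis) and bars their means for the 9 piRNA features called at ZT20. The 4 on the left are higher and the 5 on the right lower in old heads (orange) than in young heads (blue).

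Relative to miRNA counts, piRNA cluster counts numbered 9.85, 8.68 and 8.84 per 1000 in young and 14.8, 14.9 and 11.8 per 1000 in old heads (log2 difference 0.60). The rr features made up 0.115%, 0.0978% and 0.0877% of miRNA counts in young and 0.514%, 0.599% and 0.334% in old heads (2.24). Against the total behind the piRNA RPM, whose content the files do not define, miRNA counts came to 44.0%, 45.8% and 45.1% in young and 27.1%, 23.3% and 28.0% in old heads (-0.79). The ages did not overlap in these 3 measures, and the two-sided exact permutation p was 0.1 for each, the smallest that 3 against 3 libraries allow (adjusted p = 0.167 over 5 measures). piRNA counts came to 0.397% to 0.433% and 0.331% to 0.402% of that total (-0.19, exact p = 0.3), and the second set 0.977% to 1.04% and 0.887% to 1.04% of piRNA counts (-0.06, exact p = 0.5).

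Whether the age difference at ZT20 departed from that at the other 5 times was tested directly. No feature did so after adjustment, 0 of 363 miRNA features and 0 of 85 piRNA features in edgeR, with 2 and 1 at an unadjusted p under 0.05. DESeq2 also called 0 and 0, with 2 and 0 at that level. These counts are below 0.05 of the features tested, the share that no difference at all would give. The p-values thus ran high, and the lack of calls does not show that the changes were equal. The smallest p in edgeR among miRNAs were those of rr791723-1a-3p-miR (unadjusted 0.0131, with a young mean of 0.316 CPM) and miR-4956-3p (unadjusted 0.0226, 0.159 to 0.383 and 0.303 to 0.722 CPM), both at adjusted p = 0.998, followed by miR-iab-8-5p, miR-978-3p and miR-4972-3p, all under 1 CPM. Among piRNA clusters it was cluster 83 in the second set (unadjusted 0.0244, adjusted 0.949 in edgeR), with counts of 0.325, 0.385 and 0.483 in young and 2.15, 1.24 and 4.01 in old heads. Clusters 29, 30 and 70 in the second set and 24 in the first came next.

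Of the 91 miRNA features called at ZT20, 86 had a change of the same sign at all of the other 5 times and all 91 at 4 or more, and all 9 called piRNA features did so at 5. For comparison, 205 of all 363 tested miRNA features and 19 of 85 piRNA features kept 1 sign at the 6 times. The fits share an estimate of spread, and the times share no library but are not stated to come from separate cohorts of flies. In limma-voom, libraries of 1 age and replicate number correlated at 0.131 for miRNA and 0.082 for piRNA features. The times are therefore not shown to be independent. By the same test the number of miRNA calls was 120 at ZT0, 90 at ZT4, 95 at ZT8, 98 at ZT12 and 116 at ZT16, against 91 at ZT20, and that of piRNA calls 8, 28, 40, 9 and 9 against 9. ZT4 and ZT8, with 28 and 40 piRNA calls, each hold a young library rich in miR-318-3p (replicate 3, at 460 and 784 CPM). ZT0, with 8, holds an old one (replicate 1, at 563 CPM). The part of these libraries and the differences between the counts were not tested.

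**Figure D5:**
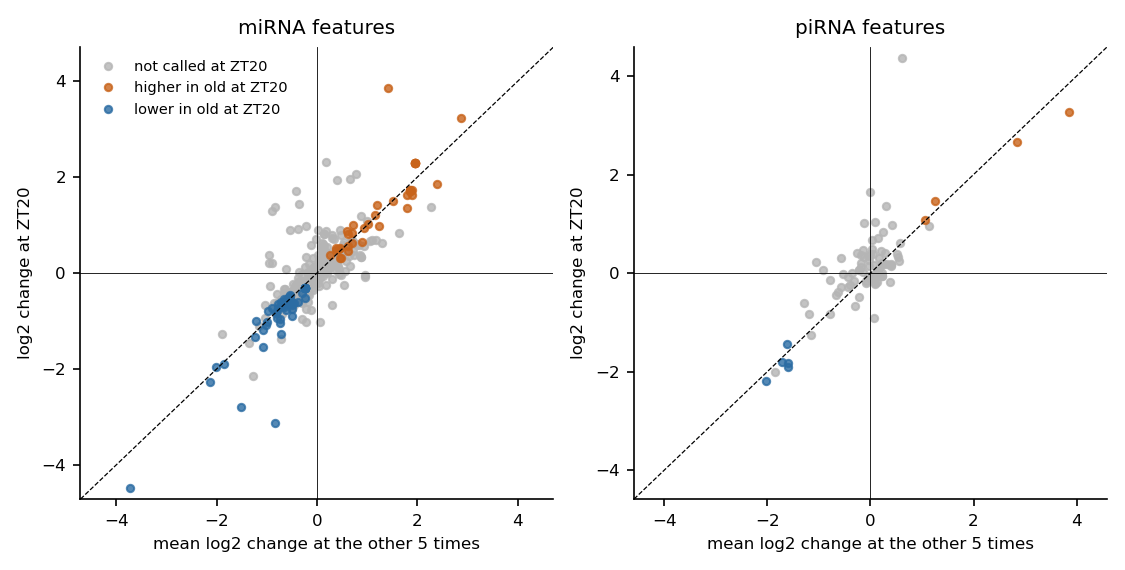
Each point is a miRNA feature (left) or a piRNA feature (right), placed by its mean log2 change between old and young heads at the other 5 times and by its log2 change at ZT20. The dashed line marks equal change. Of the features called at ZT20 (coloured), 86 of 91 miRNA and all 9 piRNA features had 1 sign at every time.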

How the data were processed

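The authors deposited expected counts per mature miRNA arm and per piRNA cluster, with fractions for reads that fit several places, and both also as RPM. The submitters' processing notes name Bowtie and the builds BDGP6 and dm6; versions and filters are not given in the sources used here. Deposited miRNA RPM equal the count over the miRNA total, piRNA RPM the count over a larger total of 56.9 to 79.6 M reads at ZT20 that the files do not define.

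Counts were rounded and fitted with edgeR 4.0.16 (filterByExpr, TMM, quasi-likelihood) over all 36 libraries in 12 age-by-time groups. Contrasts were old minus young at ZT20, and that difference minus the mean of the other 5 times. Arm ratios, log2((5p + 0.5)/(3p + 0.5)), used limma 3.58.1. p-values were adjusted by Benjamini-Hochberg within each table. Hairpin positions are from Ensembl BDGP6.54, and 179 hairpins were placed. Copies are features with r above 0.999 and totals within 2%. Scripts were tested on simulated data.

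Named are the 12 largest rises and 12 falls of miRBase arms (rr 4 each, piRNA 5 each) among calls of at least 10 CPM whose ages do not overlap, the 5 most abundant miRNAs, the 5 smallest p of each test against other times, the called arm ratios, up to 4 members of each of 18 lists, and fixed arms. Members and lists were chosen with earlier results of these data known.

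Alternatives were RLE factors, library totals, other filters, DESeq2 1.42.0, limma on RPM, limma-voom with a correlation within an age and replicate number, a replicate block, the RPM total as library size, the 6 libraries alone, no rr features and leaving out libraries.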

Additional observations from a re-analysis of the deposited data

How the results depend on the processing

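Against 39 miRNA rises and 52 falls at ZT20, falls numbered 17 with plain library totals, 30 with every counted feature kept, 25 above 10 CPM and 16 with limma on log2(RPM + 1). Without rr features there were 20 rises and 29 falls, against 19 and 47 of the same arms, and over the RPM total 17 and 164. Over the RPM total the changes of miR-100-3p (-0.13), miR-12-5p (-0.14), miR-2a-2-5p (-0.071), miR-306-5p (-0.16), miR-986-5p (-0.13), miR-996-5p (-0.27) and miR-9a-5p (-0.018) turned below 0, and uncalled changes of miR-982-5p (-0.49) and miR-987-5p (-0.51) became falls. RLE factors gave 40 and 40, and DESeq2 42 and 38. Leaving out each library in turn gave 26 to 36 rises and 29 to 37 falls. For piRNA clusters, against 4 rises and 5 falls, library totals alone gave 3 falls, limma on log2(RPM + 1) 2 rises and 3 falls, the RPM total 2 rises, exclusion of the 3 ovary-rich libraries 7 and 9, and the 6 ZT20 libraries alone 9 and 14, while leaving out each ZT20 library gave 3 to 5 rises and 5 falls each time. For arm ratios the 6 libraries alone gave 6 rises and 6 falls against 3 and 4, and leaving out a library 3 to 4 and 3 to 5. The cause of these differences between settings was not tested.

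The count of changes that depart from the other times was 0 in both tables under each alternative in which it was tested. Of 2087 values of single features and hairpins under alternatives, 1907 stayed on their side of the threshold, 86 of these with a changed sign but no call, 122 lost and 49 gained a call in the same direction, and the 9 above turned.

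It was not settled whether replicate numbers pair the libraries. Deviations of same-numbered young and old libraries correlated at 0.447, 0.085 and 0.551, and those of unlike number at -0.554 to 0.153. The values for replicates 1 and 3 were thus above all others, but young replicate 2 correlated more with old replicate 1 (0.1504) than with old replicate 2. With a replicate block, 45 miRNA features were higher and 53 lower (39 and 52 without it), 5 and 5 piRNA features (4 and 5), and 6 and 6 arm ratios (3 and 4).

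Depth limits arms under 1 CPM, where the median SE was 0.55 on the log2 scale against 0.18 at 100 to 1000 CPM.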
